A study of Homo sapiens with 11 samples.

Results

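The RNA recovered with RPS19 carrying the substitution R62W was described from 86567 windows of the transcriptome and 230 repeat elements that the authors listed as enriched over size-matched input in at least 2 of 3 replicates. The windows were all rows of the deposited R62W window table, out of 122708 windows listed for any RPS19 protein in the study, and the elements were all rows of its repeat table, out of 326. Enhanced crosslinking and immunoprecipitation (eCLIP) fixes proteins to RNA in cells, fragments the RNA, precipitates the protein and sequences the RNA that stays attached. The cells were HEK293T, an established line from human embryonic kidney that carries the large T antigen of SV40. The cells used for the 3 R62W immunoprecipitates (IP) had received a plasmid for V5-tagged RPS19 R62W and were precipitated with an antibody against V5. The 3 size-matched inputs came from crosslinked HEK293T cells without a plasmid and without antibody. Wild-type RPS19 (WT, 3 replicates) and R101H (2 replicates) were precipitated in the same way, and their lists serve as background here. The cells' own RPS19 was present in all groups, and the labels name neither the promoter of the plasmid nor separate cultures for the replicates.

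RPS19 is a protein of the small ribosomal subunit that is needed to process the precursor of its ribosomal RNA, and loss of 1 of its gene copies causes Diamond-Blackfan anemia, a failure of red blood cell production. The small subunit reads messenger RNA with the help of transfer RNA (tRNA), and it is assembled in the nucleolus, where small nucleolar RNAs (snoRNAs) guide processing of the precursor. R62W is a missense substitution found in that disease.

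Each window carries the authors' log2 odds ratio, which compares IP with input after a baseline set per GC content. Windows carry the lowest, mean and highest value over the replicates in which they passed, and for windows that passed in all 3 the remaining value follows from these. The replicates carry no number in the tables. Every window on the list was put there by this ratio, so ratios are described and not tested, and a window that is not on the list has no measured value. IP and input counts are summed over replicates.

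A few microRNA hairpins had windows with high ratios. MicroRNAs are cut from a hairpin in a longer primary transcript, and bases 2 to 8 of the mature strand, the seed, select targets. Of 1560 hairpins in the RefSeq table (GRCh38.p14), 53 were touched by 56 R62W windows, which had a median log2 odds ratio of 1.94 against 1.90 over all windows. Any overlap counted, and at MIR4800 it was 2 bases. Among these windows 9 were annotated inside coding sequence, 8 as 3′ UTR, 7 as 5′ UTR and 7 as small RNA exons. The hairpin of MIR16-1 (chr13:50048973-50049061, minus strand, inside the lncRNA gene DLEU2) filled a window of its own with 180 pooled IP counts and 4 pooled input counts. Its 3 replicate values were 4.68, 5.62 and 6.34. The hairpin is shown with its 2 mature strands in capitals, the first of them miR-16-5p.

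MIR16-1 hairpin: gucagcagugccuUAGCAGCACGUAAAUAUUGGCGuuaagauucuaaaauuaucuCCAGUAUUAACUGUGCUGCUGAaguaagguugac

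A window over 53 bases of the neighbouring MIR15A hairpin, which holds miR-15a-5p and not the whole of miR-15a-3p, had 26 IP counts and 1 input count. It passed in 2 replicates, at 3.39 and 4.89. A window that reached 20 bases into MIR16-2, the other copy of miR-16, had 132 IP and 8 input counts and values of 2.33, 5.27 and 6.02. A window over 50 bases of MIR222 had 99 IP and 5 input counts and values of 3.48, 3.74 and 6.72. The replicates of these hairpins spread more than in most windows. The listed hairpins included several that share a seed, which is in capitals in the mature strands below (5′ to 3′). They are shown because these seeds recur among the hairpins that a window touches: AGCAGCA in 3 hairpins, GCUACAU in 2, AAAGUGC in 3 and AUUGCAC in 2. The strands of MIR19A and MIR19B1 also share seeds, GUGCAAA and GUUUUGC, and are not printed. The windows that touch MIR17 and MIR92A1 do not hold the whole of miR-17-5p or miR-92a-3p.

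miR-16-5p: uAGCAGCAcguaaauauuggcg
miR-15a-5p: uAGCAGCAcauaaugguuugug
miR-222-3p: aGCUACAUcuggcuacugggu
miR-221-3p: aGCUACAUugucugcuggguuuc
miR-20a-5p: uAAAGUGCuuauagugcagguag
miR-17-5p: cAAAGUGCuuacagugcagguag
miR-106b-5p: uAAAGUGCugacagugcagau
miR-25-3p: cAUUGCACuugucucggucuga
miR-92a-3p: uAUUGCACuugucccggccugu

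Several of these hairpins come from the same primary transcript. MIR17HG, the host of the miR-17-92 cluster, had windows that touch 6 hairpins. The window over MIR20A had 69 IP and 9 input counts with values of 2.48, 3.44 and 4.04. A window that touches both MIR19B1 and MIR92A1 had 36 and 5 counts with a mean of 2.85, and one that touches MIR17 and MIR18A had 140 and 53 counts with a mean of 1.53. MIR221 (2.14), MIR106B (2.00) and MIR25 (1.89) each passed in 2 replicates. Of the 56 hairpin windows 26 passed in all 3 replicates (46.4%), against 44.5% of all R62W windows, a share near the background. The MIR16-1, MIR222 and MIR16-2 windows rest on 4 to 8 input counts.

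Transfer RNAs held most reads of the repeat list. Of 1181436 IP counts over listed repeat elements, 59.0% fell on tRNA elements, which held 38.1% of the input counts. There were 51 tRNA elements with 20 amino acid labels, selenocysteine among them. Of these 39 (76.5%) passed in all 3 replicates, against 60.4% of all listed elements. The tRNA elements also had more input, a median of 1297 pooled counts against 199.5 over all listed elements, and the 2 shares are not matched for input. The element with the highest mean was tRNA-Thr-ACY, named after its amino acid and codon, with 14168 IP and 705 input counts and replicate values of 3.12, 3.80 and 5.13. The serine element tRNA-Ser-TCY had 27948 IP and 2001 input counts and values of 2.75, 3.44 and 3.75. The histidine element had 11596 and 916 counts and values of 2.88, 2.90 and 4.05. In all these elements every replicate was above 2.

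The aspartate element carried the most reads of any tRNA element, with 118648 IP and 14716 input counts and values of 2.06, 2.50 and 3.38. Grouped by amino acid, the ratio of pooled IP to input counts was 12.7 for histidine, 11.9 for threonine, 8.48 for lysine and 8.35 for serine. It was 3.06 for leucine, 2.93 for isoleucine and 1.74 for glutamate. The median log2 odds ratio was 3.03 over the 6 serine elements and 0.92 over the 5 leucine elements, and no glutamate or proline element passed in all 3 replicates. The glutamate element tRNA-Glu-GAG_ had 49702 IP and 29499 input counts, and its replicates ran from -1.02 through 0.99 to 1.89. The SD over the 3 replicates had a median of 0.59 among tRNA elements, which is wider than the gap between most neighbours in this order. In 35 of 51 elements the lowest replicate was above 1. Fragments of tRNAs map to many near-identical genes, and the elements pool such copies.

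**Figure D1:**
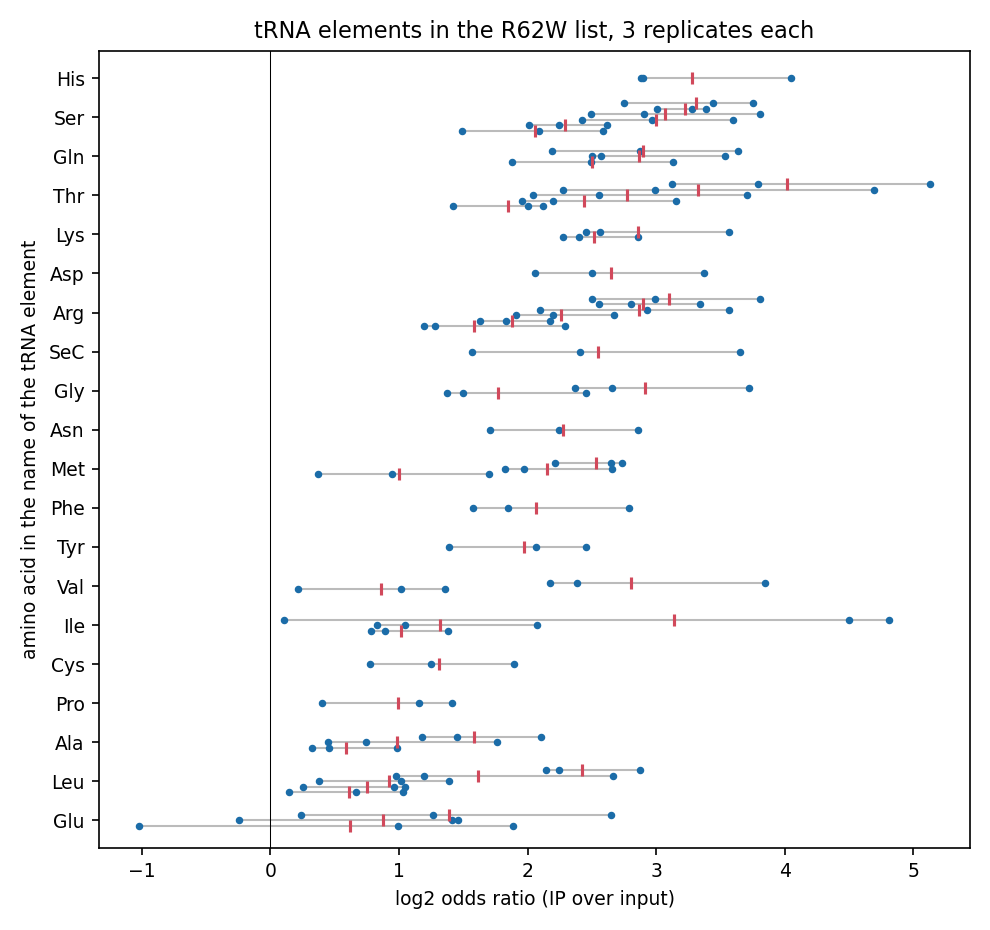
Log2 odds ratio of IP over input (horizontal axis) for the 51 tRNA elements on the R62W list, grouped by the amino acid in their name and ordered by the group's median. Blue points are the 3 replicates of an element, red bars their mean and grey lines their range; the serine, threonine and histidine elements lie to the right, with means up to 4.02, and the glutamate elements to the left, where 2 reach below 0; the leucine means run from 0.61 to 2.42.

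The window on MT-TH, the mitochondrial gene of tRNA-His, had 16434 IP and 1652 input counts and values of 3.42, 3.91 and 4.56. The leucine element tRNA-Leu-TTA(m) had 9672 and 2325 counts and values of 2.14, 2.25 and 2.87. Apart from tRNA genes, the list of mitochondrially encoded genes held 8 known from any of the lists. Of these 3 (37.5%) had an R62W window, against 89.5% of all genes known from any list. The medians of the 3 genes lay between 0.49 and 0.72. MT-CO1, a cytochrome oxidase subunit, had 3236 IP and 2807 input counts over 2 windows, and MT-ND4L, a subunit of complex I, had 1015 and 1181.

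Small nuclear and nucleolar RNAs ranged widely. U6, the catalytic snRNA of the spliceosome, had 145030 IP and 44450 input counts as a repeat element and values of 1.66, 2.04 and 2.19. U7, which guides histone mRNA processing, had 1064 and 120 counts and values of 2.62, 3.35 and 4.38. U8, a snoRNA of 60S subunit maturation, had 25418 and 12814 counts and values of 0.87, 1.25 and 1.36. U2, which pairs with the intron branch point, was not above input by counts at its main copies. The gene RNU2-1 had 16624 IP against 19711 input counts, and the window shared by WDR74 and RNU2-2P had 19014 against 23059. Both are on the list at 0.54 and 0.51, in 2 replicates each. Windows of like GC content had a median count ratio minus odds ratio of -0.61 on the log2 scale. Over all windows, 49 had fewer IP than input counts, and their highest log2 odds ratio was 0.94. The U2 pseudogene RNU2-4P had 5602 IP and 432 input counts and values of 3.71, 4.70 and 4.82.

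The list of snRNA genes and pseudogenes held 33 of 33 genes known from any list, against 89.5% of all such genes. Its median was 2.56 over 40 windows, of which 27 (67.5%) passed in all 3 replicates, against 44.5% of all R62W windows. The list of snoRNA genes held 22 of 26 (84.6%), with a median of 1.79 over 46 windows, of which 40 (87.0%) passed in all 3. U3 copies led it: U3 guides early cleavage of the ribosomal RNA precursor, and SNORD3A had 6 windows with a median of 3.57, all passing in all 3. SNORD3B-2 had 7 with a median of 3.59, while SNORD118, the U8 gene, had 2 with a median of 1.40. Summed over its windows SNORD3A had 29834 IP and 19542 input counts. U2, U3 and U6 have many near-identical copies, and which copy a read came from is uncertain.

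Simple repeats made up 137 of the 230 elements with a median of 1.49, and 75 of them passed in all 3 replicates. Their median pooled input was 57 counts. The element (TCCTCGTCC)n had the highest mean at 3.74, with 210 IP and 8 input counts. Of the repeats with at least 50 input counts that passed in all 3 replicates, 10 elements hold the bases GAT in their repeated unit. The unit was read across its ends, as the element is named, and the strand of the reads is not stated. Some of the 10 elements are the same tandem repeat named from different bases, such as (GAT)n, (TGA)n and (ATG)n, so they are not 10 separate sequences. The 10 elements were picked after their values were seen. The highest was (AGATGA)n with 1082 IP and 200 input counts and values of 2.67, 2.80 and 2.87. It was followed by (GAAGAT)n with 237 and 61 counts and a mean of 2.20, and (GATGAG)n with 298 and 57 counts and a mean of 2.12. Of the units of 3 bases, (GAT)n had 853 and 428 counts and a mean of 1.44, and (TGA)n 1099 and 630 and a mean of 1.25. In all, 18 listed elements hold GAT, with a median of 1.53 and 13 passing in all 3. For elements with neither GAT nor ATC the median was 1.43, and 60 of 115 passed in all 3. Both groups count element names, and the same tandem repeat can appear under several names. The 15 LINE or SVA elements, which are retrotransposons, had a median of 0.76 and ranged widely. At a median pooled input of 2655 counts, 80% of them passed in all 3. L1MA10 had 6793 IP and 1469 input counts and values of 2.05, 2.17 and 3.38, and L1MA4A had a mean of 1.44. L1HS had 1386 IP and 1027 input counts and values of 0.50, 0.63 and 0.72.

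Messenger RNA made up most of the window list. Coding sequence held 46024 windows (53.2%, exact 95% interval 52.8 to 53.5), the 3′ UTR 20091 (23.2%), introns with splice site windows 11676 (13.5%), the 5′ UTR 3492 (4.03%) and lncRNA exons 2294 (2.65%). Such intervals cover counting only and take windows as separate, though many share a gene. By reads, coding windows held 51.1% of the IP counts and 51.1% of the input counts of the list. The 3′ UTR held 20.2% and 23.3%, and introns 7.72% and 5.22%. The 5′ UTR held 10.9% of IP counts and 5.43% of input counts, but without RPS19 and EEF1A1 these shares were 5.95% and 5.23%. The ratio of IP to input was 3.46 in coding windows, 3.01 in 3′ UTR windows and 5.12 in intron windows, and in the 5′ UTR it was 6.96 with the 2 genes and 3.59 without them.

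**Figure D2:**
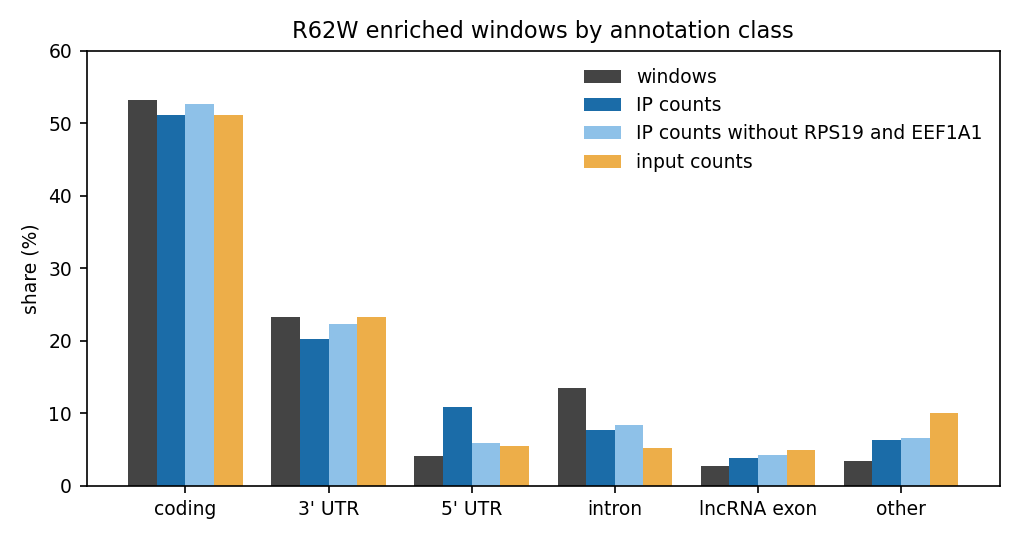
Share in percent of R62W windows, pooled IP counts, IP counts without RPS19 and EEF1A1, and pooled input counts (vertical axis) in 6 annotation classes (horizontal axis). Coding windows hold about the same share by every measure, 51.1% to 53.2%, and the 5′ UTR share of IP counts falls from 10.9% to 5.95% without the 2 genes.

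Introns had the highest median log2 odds ratio of the main classes, 2.30 against 1.82 for coding windows, 1.90 for the 3′ UTR, 1.67 for the 5′ UTR and 1.97 for lncRNA exons. They also had the lowest input, a median of 5 pooled counts against 14 in coding windows. Over all windows the log2 odds ratio fell as input counts rose (Spearman rho -0.72 over 86567 windows, which share libraries and genes), and a window with few input counts can pass only at a high ratio. Among windows with 1 to 4 input counts the medians were 2.73 for coding and 2.78 for intron windows. With 5 to 9 counts they were 2.11 and 2.11, with 10 to 19 counts 1.78 and 1.82. In these bins the medians of intron and coding windows were close, while the 5′ UTR was lowest of the 5 classes, at 1.65 with 10 to 19 counts and 1.41 with 20 to 49. Input 0 held 4.85% of intron windows and 0.356% of coding windows.

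**Figure D3:**
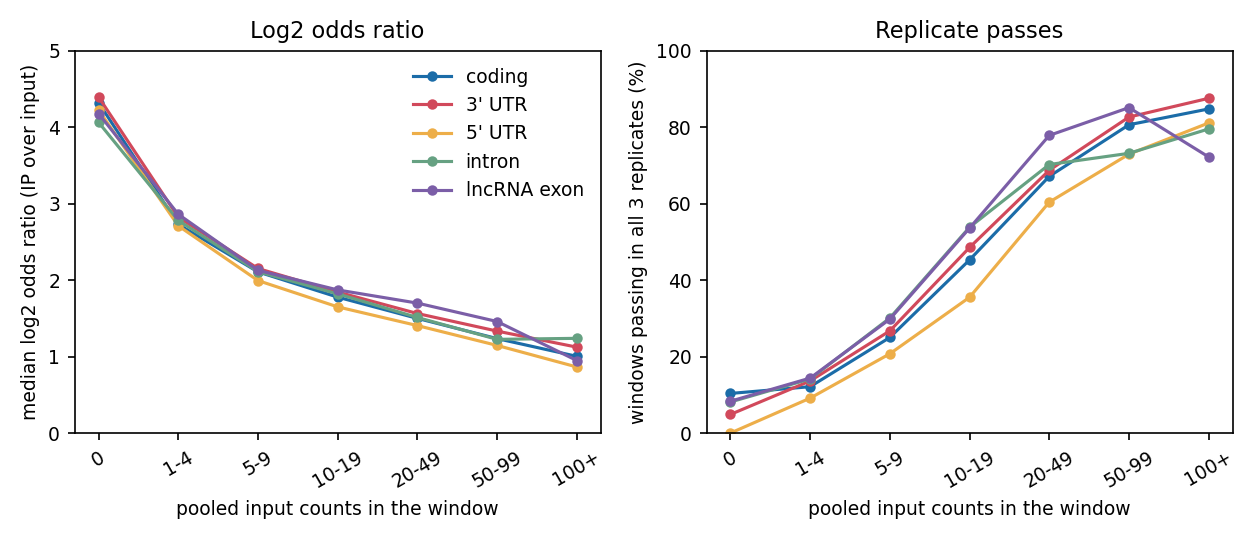
Median log2 odds ratio (left) and share of windows that passed in all 3 replicates (right) of R62W windows against their pooled input counts, for 5 annotation classes (coloured lines). On the left the classes lie close together, from medians above 4 where input is 0 to 0.86 to 1.24 at 100 or more counts, and on the right the share passing in all 3 rises from 8.26% to 84.2% over all windows.

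The share of windows that passed in all 3 replicates rose with input. It was 46.4% in coding, 48.1% in 3′ UTR, 42.4% in 5′ UTR windows, and it was 3498 of 11676 in intron windows. With 10 to 19 input counts it was 45.3% for coding, 48.5% for 3′ UTR, 35.5% for 5′ UTR and 53.8% for intron windows. Among windows that passed in all 3, the SD of the 3 replicate values had a median of 0.42, with quartiles of 0.25 and 0.65. The 20 windows with the highest q, just inside the list's limit, had a median log2 odds ratio of 1.36, with 43.5 IP and 21 input counts in the median window.

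Within genes the classes were also compared, since a gene's windows share its abundance. In 4060 genes with both kinds of window, the median coding window was below the median 3′ UTR window by 0.15 in the median gene, and it was higher in 36.5% of genes. With only windows of 10 to 49 input counts, the coding minus 3′ UTR difference was -0.12 in the median of 2606 genes. For coding minus intron the difference was -0.71 over 2139 genes and -0.20 over 703 genes with windows of 10 to 49 input counts. That range does not match input between the classes. Of intron windows 1995 had 10 to 19 counts and 736 had 20 to 49, and of coding windows 13624 and 12630. Windows at the start codon were below other coding windows of their gene by 0.19 in the median of 1291 genes. With windows of 10 to 49 input counts they were below by 0.11. Windows at the stop codon differed by -0.03, and by 0.0017 in that range.

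GC content separated the count ratio from the deposited ratio. The median log2 ratio of pooled IP to input counts was 1.28 in windows with 29% to 33% GC and 2.52 in those above 57.7%, with a Spearman rho of 0.54 over all windows. The median log2 odds ratio fell from 2.03 to 1.78 over the same bins (rho -0.11), and the median difference of the count ratio minus the odds ratio rose from -0.76 to 0.76. Among listed windows, those rich in GC thus had the larger excess of IP over input counts, and the deposited ratio is relative to a level that rises with GC. The 5′ UTR windows had a median GC content of 61.4%, the 3′ UTR windows 45% and the coding windows 50%. Windows below 29% GC were 74.9% 3′ UTR, and windows above 57.7% GC were 48.8% coding, 18.7% intron and 10.3% 5′ UTR.

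**Figure D4:**
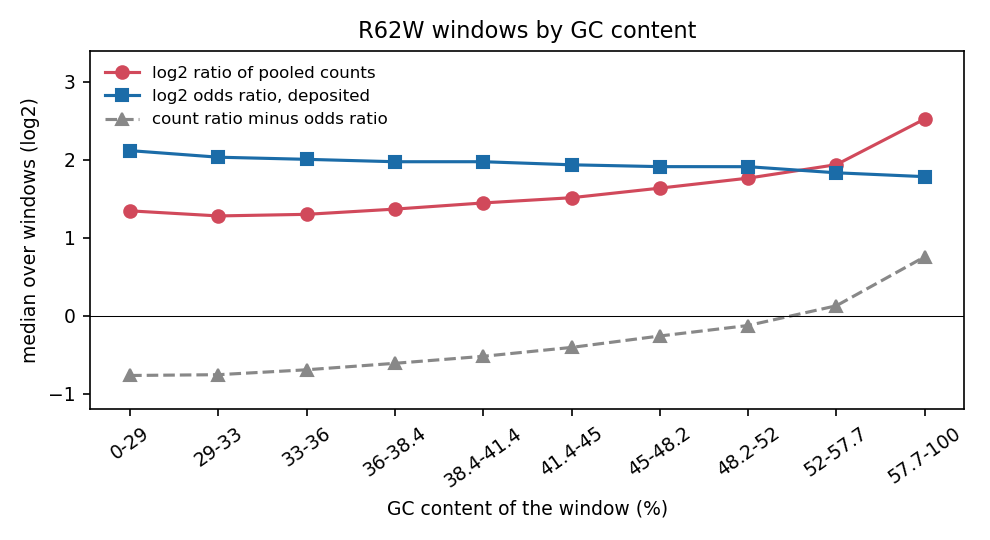
Medians over R62W windows (vertical axis, log2) of the ratio of pooled counts, of the deposited odds ratio and of their difference, in 10 bins of GC content (horizontal axis, percent). The count ratio is 1.35 in the lowest bin, 1.28 in the next and 2.52 in the highest, while the odds ratio falls from 2.12 in the lowest bin to 1.78 in the highest.

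RPS19 itself had 22 windows, which held 253281 IP counts (3.50% of the list). The window annotated as start codon (chr19:41869081-41869180, plus strand) had 94727 IP and 1896 input counts and values of 4.61, 4.83 and 5.06. Other coding windows of the gene lie upstream of it, so it is not at the first coding exon of the gene. The coding windows on either side had 42799 IP and 593 input counts (5.10, 5.25 and 5.75) and 26537 and 669 (5.45 ± 0.43, SD, n = 3). Windows beside 3 of 4 splice acceptors were also high, the most so at chr19:41868931-41869030 with 3225 IP and 61 input counts (6.30 ± 0.86, SD, n = 3). In the same gene 2 adjoining coding windows (chr19:41861112-41861161 and chr19:41861162-41861212) had 39249 IP and 643 input counts (5.03, 5.08 and 5.22) and 32354 and 884 (4.82, 4.96 and 5.37). The stop codon window had 58 and 3 counts and a mean of 3.82 over 2 replicates. Several other windows were lower. The 5′ UTR window had 2294 IP and 881 input counts and values of 0.41, 0.61 and 0.61, and 2 windows annotated as 3′ UTR had means of 1.55 and 1.77. The former (chr19:41864446-41864536) lies upstream of the window annotated as start codon, so the annotations do not all belong to 1 transcript. A further coding window (chr19:41861480-41861560) had 135 and 38 counts and values of 1.47, 2.06 and 2.59. Because a plasmid for RPS19 was present in the IP cells and not in the input cells, RNA from the plasmid and from the cells' own gene cannot be told apart in coding sequence. The tables hold no base calls, so the substitution itself could not be checked. The window over MIR6797, whose hairpin lies in the RPS19 gene, had 2540 IP and 99 input counts and values of 3.55, 3.87 and 4.17.

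EEF1A1 encodes the elongation factor that brings aminoacyl-tRNA to the ribosome, and it held more IP counts than any other gene named here, 416903 (5.76% of the list) against 3850 input counts. Of its 17 windows 11 were annotated as 5′ UTR, covering chr6:73520027-73521032 without a gap, with a median of 7.58. The highest had 33962 IP and 141 input counts and a mean of 8.46 ± 0.47 (SD, n = 3). The 11 windows ranged from 3.69 to 8.46, and 3 windows in adjoining exons had means of 7.23, 7.60 and 7.28. The list has no EEF1A1 window annotated as coding or 3′ UTR. The promoter and first intron of EEF1A1 are used in many expression vectors. The labels do not say whether the plasmid holds them, and their part in these counts was not tested.

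A single window in an intron of SNX6, which encodes a sorting nexin of endosomal transport, stood out with 24980 IP and 49 input counts (chr14:34568910-34569008) and values of 7.93, 8.25 and 8.27. The adjacent window had 1203 and 7 counts and values of 6.45, 6.91 and 9.33, and the 3 further intron windows that passed in all 3 replicates had 88 to 208 IP counts. Other intron windows with at least 10 input counts that stood high were those of FRAS1, an extracellular matrix gene, with 1114 IP and 18 input counts (4.19, 5.39 and 7.69), and TTC28 with 276 and 10 (4.52, 5.49 and 5.96). The replicates of the FRAS1 window had an SD of 1.78, those of the SNX6 window 0.19.

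Long genes gave the most windows. PRRC2B, a translation-related RNA-binding protein gene, had 206, of which 86 were intronic, 74 coding and 42 in the 3′ UTR, and 29 of the 3′ UTR windows formed an unbroken run of 2846 bases (chr9:131495875-131498720). MDN1, an ATPase that releases assembly factors from the precursor of the large subunit, had 201 windows with a median of 2.31, and 189 were coding. HUWE1, a HECT ubiquitin ligase, had 198 with a median of 1.89 and 46285 IP counts. MACF1, a crosslinker of actin and microtubules, had 198 with a median of 2.45. MYCBP2, another giant ubiquitin ligase, had 195 with a median of 2.75, and 183 of them passed in all 3 replicates. CAPN15 had 184. HERC2, a ubiquitin ligase of DNA repair, had 169 coding windows with a median of 2.71, and 152 of them passed in all 3. In order of windows they were followed by HECTD4 (171), RNF213 (166), ADGRL1 (160), NBPF20 (150) and SPEN (149).

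Most genes had few windows. The median gene had 5 windows, 1434 of 7780 genes (18.4%) had 1, and 57 had at least 100. Coding windows were concentrated, with 65.9% of them in genes that had at least 10, while 63.4% of the 1983 genes with a 5′ UTR window had a single such window. Adjacent windows formed runs: 42.0% of 3′ UTR windows lay in runs of 3 or more, against 12.4% of coding windows, which exon borders interrupt. WDR6 had the longest coding run with 25 windows (chr3:49011635-49014116), and MYCBP2 had a run of 17 with a median of 2.73. In the 3′ UTR, PUM2, a Pumilio repressor of mRNA, had a run of 24 with a median of 2.89, and GIGYF1, a translational repressor, had a run of 23 with a median of 2.29.

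The 3′ UTR windows with the highest ratio at 10 or more input counts belonged to CTC1, a telomere maintenance gene, BAX, a pro-apoptotic gene, and GIGYF1. CTC1 had 534 IP and 24 input counts and values of 3.85, 4.80 and 5.23. BAX had 338 and 19 counts and values of 4.06, 4.31 and 5.08. GIGYF1 had 303 and 23 counts and values of 3.97, 4.15 and 5.02. No replicate of these windows was below 3.85. By number, MLXIP and IGF1R, which encode a glucose-responsive transcription factor and the insulin-like growth factor 1 receptor, had 48 windows each in the 3′ UTR with medians of 2.05 and 2.18. SPEN, a transcriptional corepressor, stood high in several classes: its 14 windows in the 5′ UTR had a median of 3.27, and its start codon window had 104 IP and 13 input counts with values of 2.64, 3.47 and 4.29.

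In coding sequence, SPIN4, a reader of histone methylation, had the highest window inside the reading frame among those with 10 or more input counts that passed in all 3 replicates, with 2161 IP and 16 input counts and values of 6.32, 6.73 and 7.72. At stop codons SETD2, a histone H3 methyltransferase, had 153 and 13 counts (3.47, 3.47 and 5.10), HERC2 had 209 and 15 (2.38, 4.61 and 4.63), and the cohesin loader NIPBL had 109 and 10 (3.03, 3.49 and 3.61). In the HERC2 window 1 replicate was well below the others.

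Multicopy gene families followed EEF1A1 and RPS19 in count ratio. Over genes with at least 5 windows and 100 input counts (3068 genes), the median log2 ratio of IP to input counts was 1.63. NBPF20, which carries many copies of the Olduvai domain, had 9139 IP and 557 input counts, a log2 ratio of 4.03, over 150 windows of which 106 were intronic. NBPF14 (3.90) and NBPF19 (3.87) were close to it. The nuclear pore interacting protein gene NPIPA1 had 3.77, and the PKD1 pseudogenes PKD1P1 and PKD1P4 had 3.73 and 3.70 at a median GC content of 67.2% and 67.3%. The log2 odds ratio of their windows, relative to windows of like GC content, had medians of 3.84 for NBPF20, 2.88 for PKD1P1 and 3.01 for PKD1P4. These genes lie in near-identical duplicates, so how reads were divided among copies is uncertain. FRAS1 was at 3.80, with 1114 of its 1855 IP counts in the intron window described above. The lowest log2 count ratios among these 3068 genes included WDR74 (-0.26, through the window it shares with RNU2-2P), RPS3 (0.21), CANX (0.23) and YBX1 (0.38). RPS3, CANX and YBX1 encode a ribosomal protein, a chaperone of the endoplasmic reticulum and an abundant RNA-binding protein. The median log2 odds ratio was low for CANX (0.73) and RPS3 (1.32), but 2.02 for YBX1 and 3.12 for WDR74. In YBX1 209 of 368 IP counts lay in a 3′ UTR window with 204 input counts.

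Long noncoding RNAs differed from each other. NORAD, an RNA that binds Pumilio proteins, had 47 windows with a median of 2.59, and all 47 passed in all 3 replicates. The nuclear paraspeckle RNA NEAT1 had 63 windows with a median of 1.78 and 55 passing in all 3. MALAT1, a nuclear speckle RNA, had a lower median of 0.77 over 31 windows, with 38561 IP and 28520 input counts. Of its windows 19 passed in all 3.

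Lists of genes by function were read against 44.5% of windows passing in all 3 replicates, a median log2 odds ratio of 1.90 over all windows, and 89.5% of genes known from any list having an R62W window. The 44.5% covers all input counts. Over all windows the share was 46.9% with 10 to 19 counts, 67.7% with 20 to 49 and 80.6% with 50 to 99. Windows in ribosomal protein genes lay near the background. Small subunit ribosomal protein genes had a window in 32 of 33 and a median of 1.71 over 219 windows, 41.6% of which passed in all 3. Large subunit ribosomal protein genes had 48 of 50, a median of 1.64 and 41.4%. Of the small and large subunit windows only 20.1% and 20.9% were coding, against 53.2% of all windows. Introns held 22.4% and 19.5% of them, so the medians are not those of mature mRNA alone. The small subunit gene with most windows was RACK1, a scaffold on the subunit's head, with 24 windows, 2869 IP and 1655 input counts and a median of 1.62. RPL3 had 24 windows with a median of 1.54, and RPS6 had 13 with a median of 1.72.

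Genes for making the subunits were also near the background or below it. Assembly factors of the 40S subunit had a window in 48 of 52 genes, with a median of 1.78 and 31.3% of 470 windows passing in all 3. HEATR1, a U3 snoRNP protein, had 49 windows (median 1.42), PDCD11 37 (1.55) and the GTPase gene BMS1 32 (1.70). Assembly factors of the 60S subunit had 54 of 58 genes and 46.1% of 798 windows, of which MDN1 held 201. Initiation factors had 39 of 42 genes, a median of 1.55 and 49.3% passing in all 3. Their median input was 26 counts, and of all windows with 20 to 49 counts 67.7% passed in all 3. The scaffold genes EIF4G1 and EIF4G3 had 58 windows each, with medians of 1.53 and 1.85. Aminoacyl-tRNA synthetase genes had 32 of 35, a median of 1.78 and 38.9%.

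In lists of genes with very long coding sequences, a larger share of windows passed in all 3 replicates than the 44.5% of all windows. Giant ubiquitin ligase genes had a window in 15 of 15, and 75.4% of their 1519 windows passed in all 3 replicates, with a median of 2.33. At 10 to 49 input counts their median was 2.19 over 962 windows, against 1.67 over all 44437 such windows. Histone acetyl- and methyltransferase genes had 68.7% of 1022 windows passing in all 3 and a median of 2.01. In this list KMT2B, a histone H3 methyltransferase, had 107 windows with a median of 2.77, and 104 passed in all 3. The PI3K-related kinases, which include regulators of DNA repair and mRNA decay, had 68.5% of 540 windows at a median input of 24 counts, where 67.7% of all windows with 20 to 49 counts passed. Their median was 1.86, just below the 1.90 of all windows, but at 10 to 49 input counts it was 1.85 against 1.67. Gene medians ran from 1.27 for PRKDC with 102 windows to 2.23 for ATR with 25, and TRRAP with 143 was at 1.94. Giant cytoskeletal genes were closer to the background, with 55.7% of 1315 windows. These lists were drawn up with earlier results of these data known, and no test was made of them.

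**Figure D5:**
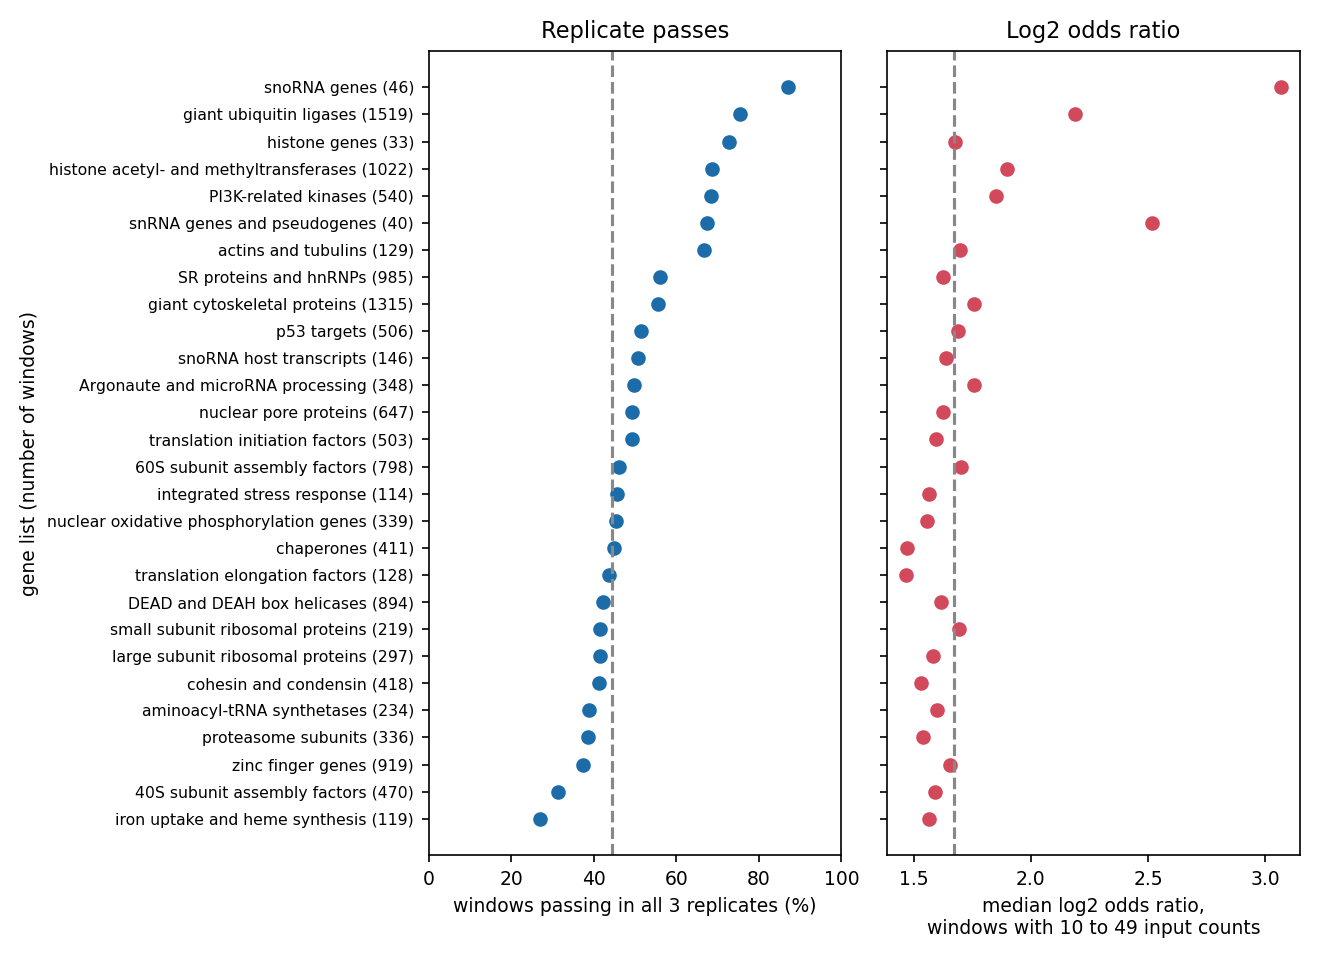
For 28 gene lists (vertical axis, number of windows in brackets), the share of R62W windows that passed in all 3 replicates (left, percent) and the median log2 odds ratio of windows with 10 to 49 pooled input counts (right). Dashed lines mark all R62W windows, 44.5% and 1.67; snoRNA genes and giant ubiquitin ligases lie above both lines, and iron and heme genes and 40S assembly factors lie below both.

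Among lists tied to the disease, p53 target genes had 23 of 24 with a window, a median of 1.92 over 506 windows and 51.4% passing in all 3. BTG2, an antiproliferative gene, had 33 windows with 3612 IP and 412 input counts and a median of 3.02, and 28 passed in all 3. CDKN1A, which encodes the cell cycle inhibitor p21, had 54 with a median of 2.18, and MDM2, the ubiquitin ligase of p53, had 59 with a median of 1.22. HEK293T cells express the large T antigen, which binds p53. Genes of iron uptake and heme synthesis had 21 of 25 with a window and 26.9% of 119 windows passing in all 3. IREB2, an iron regulatory protein gene, had 27 windows (median 1.71), TFRC, the transferrin receptor gene, 10 (2.04) and PPOX, an enzyme of heme synthesis, 12 (1.87). Integrated stress response genes had 18 of 20 and 45.6% of 114 windows. Their median input was 25 counts, and of all windows with 20 to 49 counts 67.7% passed in all 3. Among them ATF4, the main transcription factor of this response, had 4253 IP and 1689 input counts and a median of 1.04 over 10 windows. No gene on the erythroid marker list, which includes GATA1 and ALAS2, was on any list of the study.

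Abundant housekeeping mRNAs had low ratios at high input. Actin and tubulin genes had 13 of 13 with a window and a median of 1.36, with a median input of 78 counts, and 66.7% of 129 windows passed in all 3. ACTB had 16109 IP and 6631 input counts over 27 windows. At 10 to 49 input counts the median of the list was 1.70, close to 1.67 over all windows. SR protein and hnRNP genes had 41 of 41, a median of 1.54 at a median input of 35 and 56.0% passing in all 3. Of all windows with 20 to 49 counts 67.7% passed in all 3. SRRM2, a scaffold of nuclear speckles, had 83 windows with 28277 IP and 6429 input counts, and PTBP1, a splicing repressor, had 78 with a median of 1.88. Chaperone genes (median 1.58), proteasome genes (1.64) and nuclear oxidative phosphorylation genes (1.58) had 38.7% to 45.4% of windows passing in all 3. Their median inputs were 27, 18 and 24 counts. Of all windows 46.9% passed with 10 to 19 counts and 67.7% with 20 to 49. H1-10, a replication-independent linker histone gene, had 9426 IP and 2673 input counts over 16 windows with a median of 1.10, and 15 of them passed in all 3.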

How the data were processed

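Per the submitters' processing notes, fastp, STAR and GRCh38 were used. No version and no window calling tool is named there, in the labels or in the headers. Per the file headers, each window or repeat element has a pooled IP count and a pooled input count. The authors gave log2 values, odds ratios of enrichment, as lowest, mean and highest over replicates. Deposited p-values and q-values come from their enrichment test. The GC fraction of each window is also deposited, as is another quantity, how many replicates passed. Counts over listed windows summed to 7234584 for IP and 2088353 for input; these sums are not library depths. The median window had 47 IP and 12 input counts, and 40.0% of windows had under 10 input counts, so single ratios are imprecise.

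Coordinates were written 1-based. Annotations were grouped into 6 classes, and a window naming several genes counted for each. The log2 count ratio had a pseudocount of 1. Pooled, unlabelled replicates allow no count model, so no test was made and every result is a description; scripts (Python 3.11.15, pandas 2.3.3, scipy 1.17.1) were tested on simulated data. Exact 95% intervals of shares are Clopper-Pearson intervals and reflect counting error alone. Named genes were RPS19, the 12 with most windows, the 12 highest and 5 lowest by log2 count ratio (at least 5 windows and 100 input counts), the 10 with most IP counts, the 3 highest windows per annotation that passed in all 3 replicates with at least 10 input counts, in each gene list the 3 with most windows and the highest median, the longest runs per class, and in each repeat class the 3 elements highest by mean and by IP counts. Some genes this rule names are not reported here. NORAD, NEAT1, MLXIP, IGF1R, SNORD118, the other windows of EEF1A1 and SNX6, the hairpins and the other repeat elements were picked after their values were seen. The members and the gene lists were chosen with earlier results of these data known. MicroRNA sequences are those of RefSeq, GRCh38.p14. The alternatives tried are in the closing section.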

Additional observations from a re-analysis of the deposited data

How the results depend on the processing

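Several values changed with the windows used. Coding windows made up 55.5% of windows that passed in all 3 replicates, 53.9% of those with a highest q of at most 0.05, 58.7% of those with at least 10 input counts and 47.6% with 1 window per gene. In the same order the share was 25.1%, 26.4%, 25.04% and 29.0% for the 3′ UTR, 3.84%, 3.72%, 4.56% and 10.03% for the 5′ UTR, 9.09%, 9.06%, 5.58% and 6.15% for introns, and 3.05%, 3.48%, 2.82% and 3.43% for lncRNA exons. Without RPS19 and EEF1A1 the IP count shares were 52.7% for coding, 22.3% for 3′ UTR, 5.95% for 5′ UTR, 8.32% for intron and 4.19% for lncRNA exon windows. The intron median was 1.72 with at least 10 input counts and 1.74 with 10 to 49, the latter chosen after seeing the data. The 5′ UTR median was 2.11 on the scale of centred log2 count ratios with a pseudocount of 1, and 2.10 with 0.5. With at least 10 input counts the share passing in all 3 was 60.2% over all windows, 59.4% for coding, 62.4% for 3′ UTR, 54.6% for 5′ UTR, 59.2% for intron and 66.6% for lncRNA exon windows. The median GC content was 49.5% with 1 window per gene. The correlation of GC content with the ratio was -0.15 over windows that passed in all 3 and reversed to 0.54 with the log2 count ratio, which by construction has no GC baseline; for the other changes the cause was not tested. The number of genes was 5288 over windows that passed in all 3, 5890 with at least 10 input counts and 4278 at a highest q of at most 0.05, against 7780, and 139 repeat elements passed in all 3. Of 76 alternatives 36 left a value within its spread, or a count within 1.5 times, 39 moved it further and 1 reversed it. No paired analysis was possible because the tables pool counts over replicates and give replicate values without numbers, and for the same reason no replicate could be left out. Counts limit single windows: 860 had an input count of 0.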
